A study of Mus musculus with 2 samples.

Results

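Open chromatin was described around 34 imprinted genes in the adrenal gland of B6CASTF1/J female mice aged 10 days, an F1 hybrid of C57BL/6J and CAST/EiJ, mapped by DNase-seq in 2 biological replicates of 1 group. In this assay the enzyme DNase I cuts accessible DNA, and the cut ends are sequenced. The labels name 3 females for each sample and do not say how their glands were combined. There was 1 condition and no treatment, so no comparison between conditions was possible and no test was made. The genes, of 55413 annotated genes in all, were chosen as known imprinted genes and fall into 18 clusters, and each was taken with its gene body and 20 kb on either side in GENCODE release M21 (mouse build mm10). The rule that lists them uses no measured value, although the list was made with earlier results of these data known. A further 18 windows were placed on the control regions of these clusters: 15 within 1 kb of a gene start and 3 upstream of one.

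An imprinted gene is transcribed mainly from the copy inherited from 1 parent. The parental copies are told apart by DNA methylation that is laid down in the egg or the sperm on a control region and kept through later cell divisions. Many maternal marks cover the promoter of a paternally expressed transcript, while the paternal marks of the H19, Meg3 and Rasgrf1 loci lie between genes. The protein CTCF binds the unmethylated copy of the H19 region, and ZFP57 binds the methylated copy of many control regions. In the adrenal gland this family is known for Cdkn1c, a brake on the cell cycle whose loss or gain of function in humans affects adrenal growth, for Igf2, a fetal growth factor, and for Dlk1, a marker of capsular and progenitor cells in rodents. The deposited files hold no calls by parental allele, so a peak here sums whatever both copies contributed. The mm10 build is a C57BL/6J genome, and how well reads of CAST/EiJ copies were placed on it was not tested. In bulk tissue, fewer cells with an open site and less opening per cell cannot be told apart.

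The letters that carry the findings at H19 and Peg3 are shown first, since the peaks there are described by them. Upstream of H19, 3 places matched the CTCF consensus of this control region (CCGCG, any letter, GG, any letter, GGCAG), and all lay on the minus strand, which is the strand of H19. They are named by the distance of the match centre upstream of the most 5' start of H19, with the match in capitals and 10 bases on either side (mm10, minus strand). Their places are chr7:142580299-142580332, chr7:142580754-142580787 and chr7:142582024-142582057, in the order printed.
H19 upstream 2172: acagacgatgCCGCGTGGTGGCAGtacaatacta
H19 upstream 2627: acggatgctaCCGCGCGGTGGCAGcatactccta
H19 upstream 3897: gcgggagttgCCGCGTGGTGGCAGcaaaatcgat
The first and the last share all their capitals, and the middle one differs at the first free letter. Among the 48299 shared peaks 23 hold such a match (0.0476%), and of the 3 printed here only the one at 2627 bp lies in a shared peak. As the consensus is that of this control region, its presence here follows from the choice of motif. The shorter CTCF core given below was found in 13% of shared peaks.

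Within Peg3, 11 places inside shared peaks matched GCCATNTT, the core consensus of the zinc finger protein YY1, and all 11 were on the minus strand, the strand of Peg3. They span 2174 bp downstream of the start, in the intron, and are named by the distance of their centre from the most 5' start, with 6 bases on either side. The first lies at chr7:6729583-6729602 and the last at chr7:6727417-6727436 (mm10, minus strand), and the capitals mark the match.
Peg3 downstream 839: gttggcGCCATCTTggaggg
Peg3 downstream 945: cttggcGCCATCTTgaaatg
Peg3 downstream 1548: cctggcGCCATCTTtcctgg
Peg3 downstream 1689: cctgacGCCATCTTtgctgg
Peg3 downstream 1977: tttggcGCCATCTTtgccag
Peg3 downstream 2026: gcagacGCCATCTTgaatga
Peg3 downstream 2165: gaaggtGCCATTTTgattga
Peg3 downstream 2464: cctgacGCCATCTTtgctga
Peg3 downstream 2494: gcagtaGCCATCTTgaatga
Peg3 downstream 2583: ctgggcGCCATCTTtacttg
Peg3 downstream 3005: tctggcGCCATCTTtgttgg
At the free letter 10 of the 11 had C, and 9 of the 11 followed GC or AC directly.

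The peaks at 4 further starts are printed whole because they hold other matches used in the results. Capitals mark the hexamer TGCCGC of ZFP57 at Mcts2 (chr2:152686801-152687020, plus strand) and, read on its other strand, at Snrpn (chr7:60005041-60005260, minus strand). They mark the palindromic NRF1 consensus at Zrsr1 (chr11:22972821-22973080, plus strand). At Meg3 (chr12:109542901-109543140, plus strand) they mark first a match of the CTCF core (CC, any 3 letters, AGG, any letter, GGC) on the other strand and then an NRF1 match. All are mm10 and run 5' to 3' on the strand of the gene.
Mcts2 peak: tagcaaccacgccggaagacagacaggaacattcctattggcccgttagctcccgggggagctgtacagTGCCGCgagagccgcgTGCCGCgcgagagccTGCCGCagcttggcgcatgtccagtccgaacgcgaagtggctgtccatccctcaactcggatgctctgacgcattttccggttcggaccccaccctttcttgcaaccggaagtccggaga
Snrpn peak: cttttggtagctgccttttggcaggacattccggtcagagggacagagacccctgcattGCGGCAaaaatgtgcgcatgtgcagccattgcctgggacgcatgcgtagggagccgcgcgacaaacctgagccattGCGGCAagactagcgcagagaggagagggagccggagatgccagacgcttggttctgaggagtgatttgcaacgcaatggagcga
Zrsr1 peak: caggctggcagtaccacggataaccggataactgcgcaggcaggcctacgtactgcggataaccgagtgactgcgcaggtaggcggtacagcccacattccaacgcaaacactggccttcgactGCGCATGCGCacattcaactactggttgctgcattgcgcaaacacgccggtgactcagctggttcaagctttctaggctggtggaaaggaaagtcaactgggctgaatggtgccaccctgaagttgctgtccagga
Meg3 peak: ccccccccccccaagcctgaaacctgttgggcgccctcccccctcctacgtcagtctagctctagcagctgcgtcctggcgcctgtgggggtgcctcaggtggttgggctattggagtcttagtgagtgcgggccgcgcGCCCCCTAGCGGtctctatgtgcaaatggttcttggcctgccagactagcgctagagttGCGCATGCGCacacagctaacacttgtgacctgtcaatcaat

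Replicate 1 had 98813 peaks and replicate 2 had 55135, with 339116 and 241536 footprints (short protected stretches inside open chromatin). A shared peak was a region where peaks of both replicates overlapped by at least 1 bp, and its value in a replicate is the normalised height that the authors gave for the highest peak there. The median height ratio of replicate 1 over replicate 2 was 0.73 on the log2 scale over all 48299 shared peaks, and differences between replicates are given after subtracting it (centred log2). As a check of the tissue label, 5 of 7 markers of the adrenal cortex, 5 of 7 of chromaffin cells and 1 of 12 of other tissues (Ckm) had a shared peak within 1 kb of a start. Protein-coding genes of the same CpG deciles have one in 35.9%, 64.8% and 31.8% of cases on average, in the order of these lists, so the chromaffin count is near its background. The defining markers Cyp21a1, Mc2r and Th were among those without one.

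Most imprinted genes had an accessible promoter, and in most of these its peak was below the median for its CpG content. A shared peak lay within 1 kb of a start in 28 of the 34 genes, against a background of 32.3% of all genes. The coding members had one in 22 of 26 cases, against 63.6% of all protein-coding genes, and the noncoding members in 6 of 8, against 25.4% of long noncoding genes. The 28 genes had 26 separate highest peaks, since the divergent pairs Peg3 and Usp29, and Peg10 and Sgce, have the same one. For Peg3 and Usp29 it lies in the intron of Peg3, not at the starts themselves. The highest peak of a gene was picked by its height in replicate 1, and the replicate 2 value is from the same peak. Median heights were 3.61 in replicate 1 and 1.85 in replicate 2 for the coding members, against 5.95 and 3.10 for all protein-coding genes with a shared promoter peak. They were 2.79 and 1.58 for the noncoding members, against 3.77 and 2.15 for long noncoding genes with one.

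The height of protein-coding promoters rose with their CpG content, so each imprinted promoter was set beside protein-coding genes of like CpG content. These fall into 10 deciles by the ratio of observed to expected CpG in the 500 bp on either side of the CpG-richest start. The share with a shared promoter peak also rose, from 1.82%, 6.06%, 19.5% and 48.7% in deciles 1 to 4 to 80.7%, 91.7%, 94.1%, 97.3%, 97.5% and 98.5% in deciles 5 to 10. Averaged over the members' own deciles, that share is 80.6% for the 34 genes, of which 82.4% had a peak, and 83.7% for the 26 coding ones, of which 84.6% had one. The number of imprinted genes with a promoter peak was thus close to that of protein-coding genes of like CpG content, and the heights were not. The members ran from decile 2 to decile 10, and the only one of the 6 without a shared promoter peak in decile 5 or above was Slc38a4. By this measure 22 of the 28 imprinted genes with a shared promoter peak in replicate 1 and 23 of 28 in replicate 2 were below the median of their decile, where 49.9% of protein-coding promoters are. Counting each shared peak once gives 21 of 26 in replicate 1 and 22 of 26 in replicate 2. The median imprinted promoter stood at percentile 21.7 of its decile in replicate 1 and 16.7 in replicate 2. Genes listed as expressed from the maternal copy, Ube3a among them, had median heights of 3.12 and 1.88 (8 of 10 with a peak). Those listed as paternal had 3.41 and 1.74 (19 of 23), and Gnas, listed under both copies, was left out. This listing does not come from these data, which hold no calls by allele. These groups differed little beside the range within each of them.

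**Figure D1:**
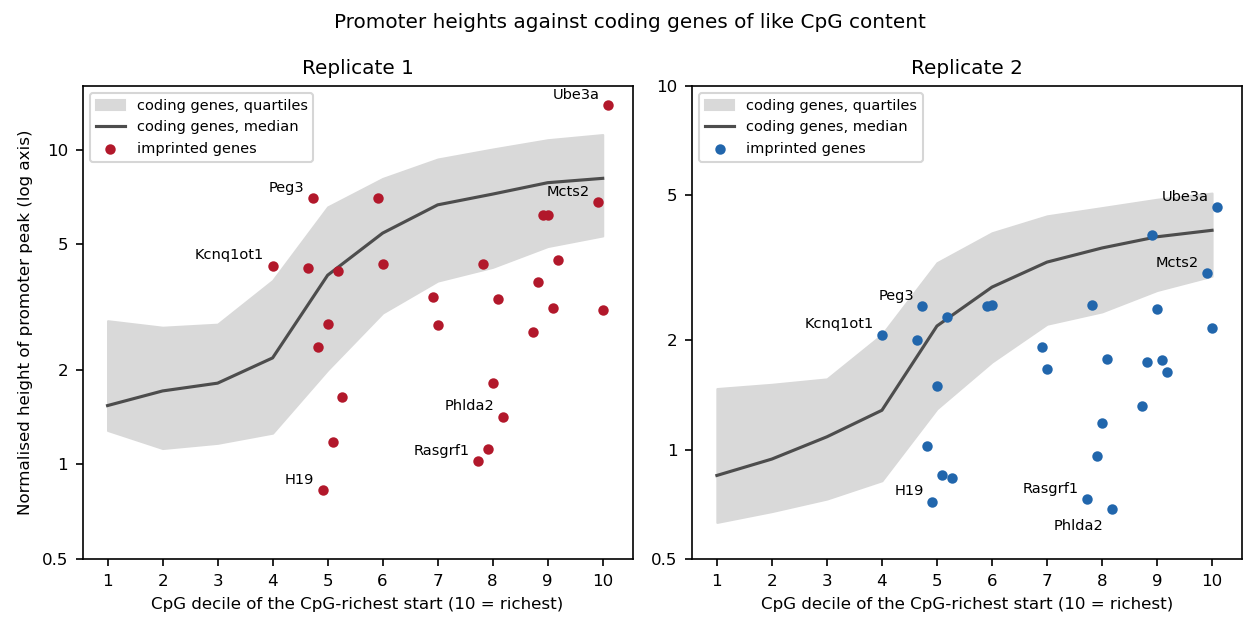
Height of the highest promoter peak (log axis) against the CpG decile of the CpG-richest start in replicate 1 (left) and replicate 2 (right); points are the 28 imprinted genes with a shared promoter peak, the line is the median and the band the quartiles of protein-coding genes with one. Ube3a, Peg3 and Kcnq1ot1 lie above the band in replicate 1 and none does in replicate 2, and 15 genes, Rasgrf1, Phlda2 and H19 among them, lie below it in both replicates. The Peg3 point is a peak in its intron, 679 bp from the start. The peak of each gene was picked by its height in replicate 1.

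Ube3a, the ubiquitin ligase whose maternal copy is lost in Angelman syndrome in humans, had the highest imprinted promoter peak, 13.8 in replicate 1 and 4.65 in replicate 2 (chr7:59228441-59228860). It stood at percentiles 90.9 and 66.6 of its CpG decile. Imprinting of Ube3a is known from neurons, and other tissues use both copies. Gnas, which encodes the stimulatory G protein subunit that carries the corticotropin signal, had 6.21 and 3.89 at one of its starts (chr2:174329641-174330140), at percentiles 36.05 and 50.9. It also had the most promoter peaks, 7 over its several alternative starts.

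The lowest imprinted promoter in replicate 1 was that of H19, a noncoding RNA of the fetal and newborn period, with 0.829 in replicate 1 and 0.719 in replicate 2 (chr7:142578121-142578363), and the lowest in replicate 2 was that of Phlda2. Igf2 had 1.12 and 0.961, at the only 1 of its 7 groups of starts with a shared peak (chr7:142659240-142659630, in an exon). Rasgrf1, an exchange factor for Ras expressed in brain, had 1.02 and 0.731 in a peak 948 bp from its start, at percentiles 3.33 and 2.25, and 0.829 and 0.682 at the start itself. Phlda2, a growth-limiting gene of the placenta, had 1.42 and 0.688, and Magel2, which is active in the hypothalamus, 1.18 and 0.849. H19 and Magel2 are in CpG decile 5, where the median protein-coding promoter had 3.99 and 2.19, and Igf2, Rasgrf1 and Phlda2 in decile 8, where it had 7.23 and 3.59.

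Dlk1, the transmembrane protein of the Notch ligand family, had a promoter peak of 1.82 and 1.18 (chr12:109453201-109453490), at percentiles 9.51 and 7.78. The height at its own start was below that of an intergenic peak 14803 bp upstream, with 4.90 and 3.24 (chr12:109437821-109438020), which held a CTCF core match. Plagl1, a zinc finger gene that regulates other imprinted genes in mouse, had 2.64 and 1.31. Mest, a hydrolase gene of the mesoderm, had 3.34 and 1.77 in a peak 830 bp from a start and 2.63 and 1.71 at a start. Peg10, a gene of retrotransposon origin needed for the placenta, had 4.33 and 2.50. Grb10, an adaptor that damps insulin signalling, had 3.10 and 2.16 at the internal start and 2.52 and 1.59 at the upstream one. Igf2r, the receptor that clears Igf2, had 3.14 and 1.76, and Airn, the antisense RNA that silences it, 2.80 and 1.49.

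Cdkn1c had 6.19 and 2.44 (chr7:143460901-143461260), at percentiles 35.9 and 19.8. Kcnq1ot1, the noncoding RNA that silences it in cis, had 4.28 and 2.07 at percentiles 79.9 and 74.8, where its own CpG decile was 4. The zinc finger genes Peg3 and Zim1 had shared promoter peaks, Zim1 with 4.205 and 2.01. Peg3 had 7.01 and 2.48 in a peak in its intron, 679 bp from the start, and 3.16 and 1.71 at the start itself. The median of its CpG decile, 5, was 3.99 and 2.19, so the peak at the start was below it. Of the single-exon retrogenes that sit inside a host gene, Mcts2 had 6.82 and 3.06, and Zrsr1 3.41 and 1.92. The Zrsr1 peak overlaps a start of Commd1 and lies 135 bp from the nearest start of Zrsr1. Nnat, a proteolipid gene inside Blcap, had 4.47 and 1.64. Impact, a regulator of translation, had 3.80 and 1.74, and Peg13, a noncoding RNA inside Trappc9, 4.10 and 2.31. The noncoding RNA Meg3 had 2.37 and 1.02 in a peak 633 bp from a start, and 2.33 and 1.07 at its most 5' start. Nespas, an antisense RNA at Gnas, had 2.77 and 1.67, and Snrpn, a splicing factor gene, 1.63 and 0.837. Usp29, a deubiquitinase gene, shares the intronic peak of Peg3, 838 bp from the nearest Usp29 start. Sgce, a sarcoglycan gene, shares the peak of Peg10.

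**Figure D2:**
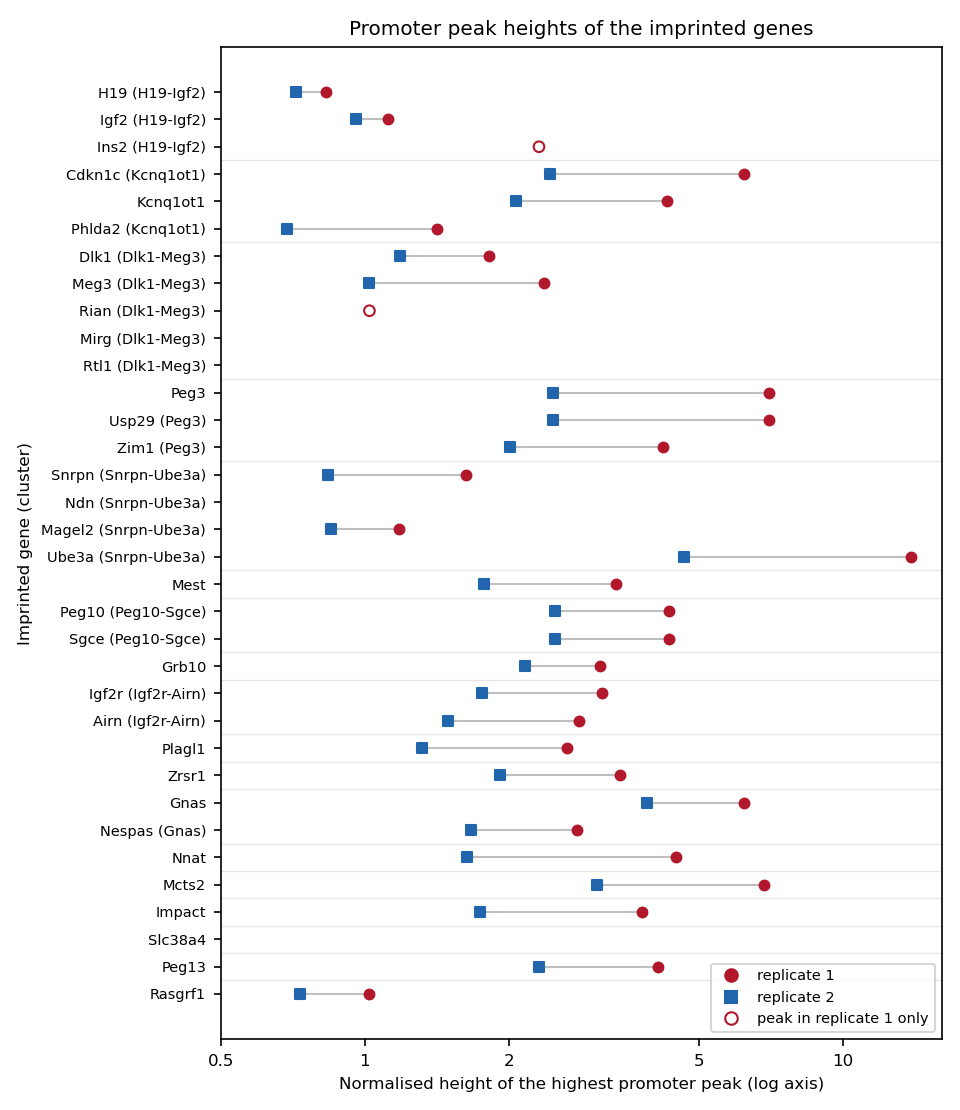
Normalised height of the highest promoter peak (log axis) for each of the 34 imprinted genes, by cluster, in replicate 1 (circles) and replicate 2 (squares); open circles are peaks of replicate 1 alone, and a row with no symbol had no promoter peak in the shorter list. Ins2 and Rian had a peak in replicate 1 only, and Mirg, Rtl1, Ndn and Slc38a4 had none. The shared peak of each gene was picked by its height in replicate 1.

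No shared promoter peak was found for 6 members. Ins2, an insulin gene, had 2.31 in replicate 1 and 0.713 in replicate 2, the value of replicate 2 being from the longer peak list alone. Each is the highest over all Ins2 starts in that replicate, so these values may come from different sites. Rian, a host of small nucleolar RNAs, had 1.02 in replicate 1 and no peak in either list of replicate 2. Mirg, a host of microRNAs, and Rtl1, a retrotransposon-like gene of the placenta, belong to the same Dlk1-Meg3 cluster and had no promoter peak in either list of either replicate. The nearest shared peaks were 2.64 and 1.10 at 281 bp past the end of Mirg and 2.51 and 1.15 in an intron of Rtl1 at 4229 bp. Ndn, a single-exon gene, had none within 1 kb, but a shared peak of 3.52 and 2.00 lay in its exon 1612 bp from the start (chr7:62348181-62348400). The only annotated start of Ndn is poor in CpG (0.17 observed over expected), while this peak had 0.72. Whether the peak marks a start of Ndn was not tested. Slc38a4, an amino acid transporter, was the 1 member with no shared peak anywhere in its territory, and its promoter reached 0.481 and 0.403 in the longer list. Ins2 and Ndn are in CpG decile 2, Rtl1 in decile 3, and Rian and Mirg in decile 4.

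The territories of the imprinted genes hold accessible sites beyond the promoters. A shared peak was found in the territory of 33 of the 34 genes, against 61.4% of all genes, and 80.7% of protein-coding ones and 67% of long noncoding ones. Merged, the territories make 25 stretches of 2676.7 kb in all with 105 shared peaks, or 39.2 per Mb, against 17.7 per Mb over the genome. Per gene, however, the median was 3.59 per 100 kb, against 3.53 for protein-coding genes. Of the 105 peaks, 56 lay within 1 kb of any start, or 53.3%, against 44.9% of all shared peaks, and 34 lay elsewhere in a gene and 15 between genes. Among the peaks of replicate 1 in the territories, 62.2% overlapped one of replicate 2, against 51.9% over the whole list. Among those of replicate 2, 87.1% overlapped one of replicate 1, against 91.5%.

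Mcts2 and Cdkn1c had the densest surroundings, with 8 shared peaks each, or 19.6 and 18.7 per 100 kb. The territory of Mcts2 is the host gene H13, and 7.41 and 3.58 were reached in an exon of H13 (chr2:152707641-152707940), 7.13 and 4.03 at the H13 start, and 7.03 and 3.81 near the start of Gm26841. Around Cdkn1c, 5 shared peaks lay upstream of the most 5' start at distances of 2931, 3811, 5351, 9011 and 19571 bp. Their heights ran from 1.504 to 3.12 in replicate 1 and from 1.22 to 2.61 in replicate 2, all below the promoter in replicate 1. The peaks at 2931, 5351, 9011 and 19571 bp each held a CTCF core match, and the first 3 of these were on the minus strand and the last on the plus strand.

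The other high peaks of the territories belong in part to neighbours. Within the territory of Zrsr1 the starts of Cct4 and Commd1 had 9.88 and 4.96, and 9.59 and 6.21. In that of Impact the start of Osbpl1a had 6.62 and 3.81. Peg10 itself had a peak of 9.31 and 3.94 in its intron, 1775 bp from the start (chr6:4749181-4749360), which was over the height of its promoter peak. At Airn, 4 peaks between 15134 and 18331 bp from its start lay together in an intron of Igf2r, with heights of 1.51 to 2.27 in replicate 1 and 0.849 to 1.00 in replicate 2. Usp29 had 6 more peaks along its long introns, from 0.588 to 2.45 and from 0.471 to 1.84.

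At the control regions themselves, 13 of 18 windows held a shared peak. Among the 15 windows at gene starts, 12 held one, or 80%, against 88.3% of protein-coding genes averaged over the same CpG deciles. These shares are unlike, as each window covers a single start and the protein-coding share counts a peak at any start. Counted at any start, Nespas and Nnat, which had none in their windows, also have one. The median height of the 12 peaks was 3.61 for replicate 1 and 2.00 for replicate 2. Each of these 12 peaks is also the highest promoter peak of its gene. They were thus already counted with the promoters above and are not a separate result. In each replicate 9 of these 12 were below the median of their CpG decile, where 49.9% of protein-coding promoters are. Kcnq1ot1, Peg3 and Peg13 were above it in both. Peg3 was above it by its intronic peak only, as the peak at its start had 3.16 and 1.71, against a decile median of 3.99 and 2.19. The lowest was Snrpn, the control region of the Prader-Willi and Angelman locus, with the values given above, and the highest in replicate 1 was Peg3 and in replicate 2 Mcts2.

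The start windows without a shared peak were those of Nespas, Nnat and Slc38a4. For Nespas the rule picked an internal start (position 174285435) 10001 bp downstream, while its most 5' start held 2.77 and 1.67, and with that start 14 of 18 windows have a peak. For Nnat the nearest peak, 4.47 and 1.64 (chr2:157561241-157561460), began just past the edge of the window. Of the 3 paternally marked windows between genes, only that of H19 had shared peaks. The Dlk1-Meg3 window (10 to 17 kb upstream of Meg3) had a peak of 1.02 in the longer list of replicate 1 and none in replicate 2, with 163 and 10 bases at an FDR of at most 0.05. The Rasgrf1 window (25 to 35 kb upstream) had none in replicate 1 and 0.291 in the longer list of replicate 2, with 10 and 210 such bases.

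Upstream of H19 the 3 printed CTCF matches lay in open chromatin of both replicates. The window from 1.5 to 4.5 kb upstream had 4 peaks in replicate 1 and 2 in replicate 2, and these made 2 shared peaks. The one nearer to H19 had 0.635 in replicate 1 and 0.762 in replicate 2 (chr7:142580413-142580835), and the farther one 0.709 and 0.725 (chr7:142581741-142582019). The match at 2627 bp was inside the nearer shared peak and inside a footprint in both replicates. The match at 3897 bp lay just beyond the edge of the farther peak, in a footprint of replicate 2 alone, and the centre of the match at 2172 bp was in no footprint, although a footprint of replicate 1 overlapped the match in part. All 3 were in stretches with an FDR of at most 0.05 in both replicates, and in peaks of both longer lists. Such bases made up 1158 and 1045 of the window.

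**Figure D3:**
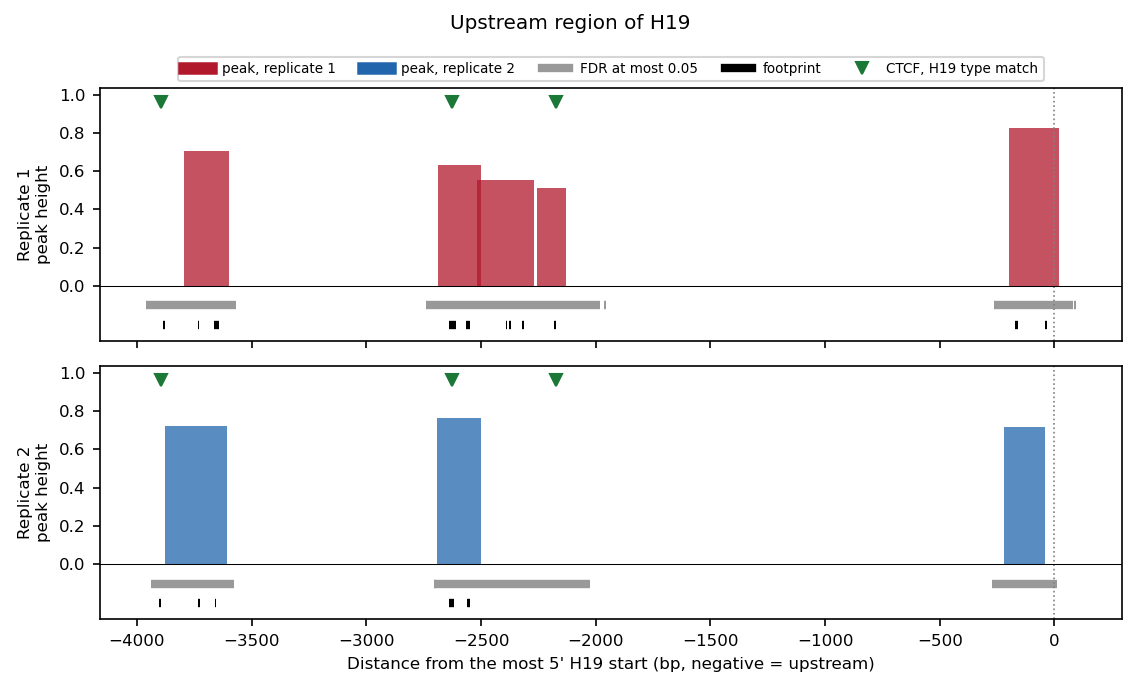
Peaks by height in replicate 1 (top) and replicate 2 (bottom) by distance from the most 5' H19 start, with stretches at an FDR of at most 0.05 (grey), footprints (black) and the 3 CTCF matches of the H19 type (triangles). The match at 2627 bp lies in a peak and a footprint of both replicates, and the peaks upstream are lower than the one at the start in replicate 1 (0.515 to 0.709 against 0.829) and slightly higher in replicate 2 (0.725 and 0.762 against 0.719).

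At Peg3 the matches of YY1 were spread over 3 adjoining peaks within the gene. The peak nearest to the start had 7.01 and 2.48 (chr7:6729441-6729740) and held 2 of the 11 matches. The next had 4.37 and 1.36 (chr7:6728181-6729000) and held 5, and the last had 2.96 and 1.13 (chr7:6727361-6728020) and held 4. Only 5 of all 48299 shared peaks (0.0104%) held at least 4 such matches, these 2 among them, and no peak outside Peg3 held more than 4. Over all territories 9 of 105 peaks held a YY1 match, against 5.93% of all shared peaks, and those 3 peaks had 11 of the 17 matches. In replicate 1 there were 4 of the 11 in a footprint, in replicate 2 there were 4, and 3 were the same. This is near the background, as 33.3% and 32.5% of the YY1 matches in all shared peaks were in a footprint. The peak at the start itself (3.16 and 1.71) held no match.

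**Figure D4:**
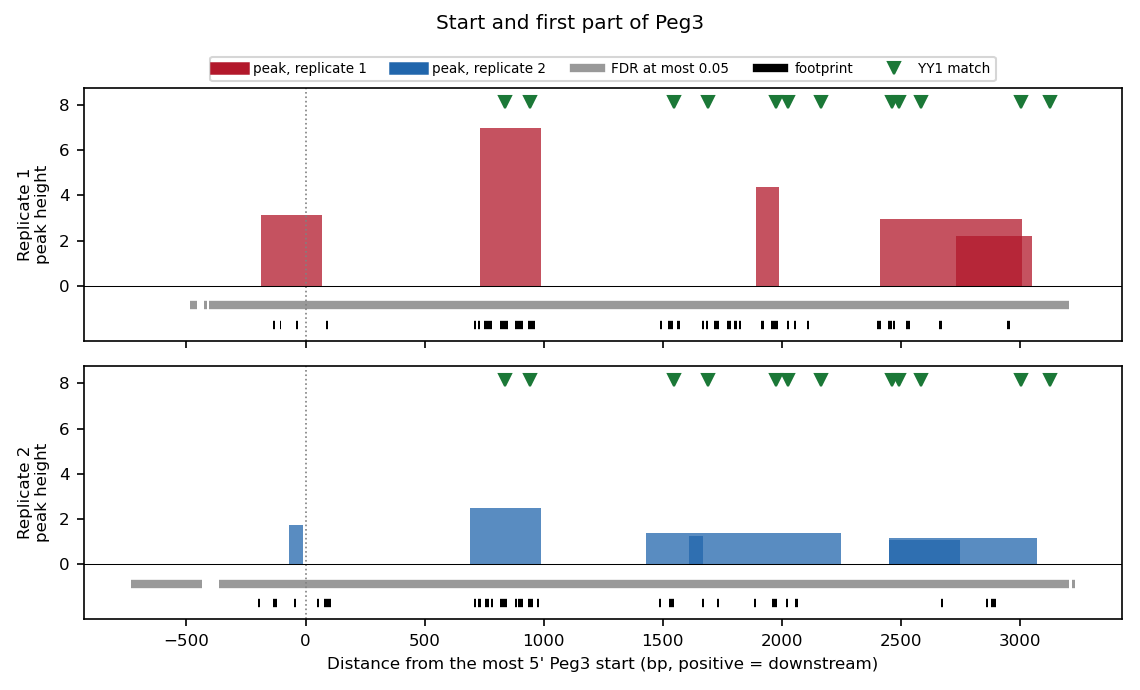
Peaks by height in replicate 1 (top) and replicate 2 (bottom) by distance from the most 5' Peg3 start, with stretches at an FDR of at most 0.05 (grey), footprints (black) and YY1 matches (triangles). The highest peak of both replicates begins 731 bp downstream of the start in replicate 1 and 691 bp in replicate 2, and the YY1 matches run on over the lower peaks beyond it, the farthest triangle being outside the peaks.

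The ZFP57, CTCF core and NRF1 consensus sequences were searched in the same peaks. The ZFP57 hexamer was found in 28 of 105 territory peaks, or 26.7%, against 16.5% of all shared peaks, and the median CpG observed over expected was also higher in these peaks (0.50 against 0.41). Whether the CpG content accounts for the difference was not tested. Of the 50 hexamers, 8 in replicate 1 and 4 in replicate 2 had their centre in a footprint, or 16% and 8%, against 17.8% and 15.1% over all shared peaks. The CTCF core was found in 16 peaks, or 15.2%, against 13%, with 11 of 16 centres in a footprint in each replicate, or 68.8%, against 74.2% and 73.4%. The NRF1 consensus was found in 2 peaks, the printed ones of Zrsr1 and Meg3, against 0.822% of all shared peaks. Both matches were in a footprint of both replicates, but so were nearly all NRF1 matches elsewhere. Over all shared peaks the share was 97.8% in replicate 1 and 95.9% in replicate 2.

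Footprints were about as dense in the imprinted territories as elsewhere. There were 12.7 per kb of shared peak in replicate 1 and 10.5 in replicate 2, against 12.3 and 11.5 over all shared peaks. Of the footprints of replicate 1 there, 49.2% overlapped one of replicate 2, against 54.4%. Of those of replicate 2, 61.4% overlapped one of replicate 1, against 59.4%. Bases at an FDR of at most 0.05 made up 37.7 per kb of territory in replicate 1 and 28.7 in replicate 2, against 18.9 and 12.5 over the genome. The genome also holds stretches far from any gene, and these bases were not counted around other genes. Whether the territories exceed those of other genes was therefore not tested.

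The replicates differed between clusters. Over the 33 members with a shared peak, the median of the centred log2 difference (replicate 1 over replicate 2) was 0.05, against 0.01 over all genes, and the quartiles were -0.11 and 0.31, against -0.20 and 0.22. The H19-Igf2 cluster leaned to replicate 2, with a median of -0.55 over 6 peaks, and both shared peaks of the H19 control region were higher in replicate 2 outright (-0.996 and -0.77 after centring). Rasgrf1 had -0.35 over 2 peaks, Nnat -0.30 over 3 and Gnas -0.22 over 9. The quartiles of single peaks over all shared peaks were -0.337 and 0.324, so the Nnat and Gnas medians were within them. Beside peaks of the same height decile the median of the H19-Igf2 cluster was -0.41. The 5 peaks within 20 kb of Cdkn1c on its upstream side ran from -0.77 to -0.01, and its promoter peaks had 0.61 (6.19 and 2.44) and -0.79 (1.23 and 1.28, chr7:143459601-143460100).

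Leaning to replicate 1 beyond the quartiles of all shared peaks were the Dlk1-Meg3 cluster, with a median of 0.38 over 7 peaks, and Peg13 with 0.64 over 2. The Igf2r-Airn cluster (median 0.317 over 10 peaks, all above 0) and Plagl1 (0.29 over 2) were within those quartiles. The 3 Peg3 peaks with YY1 matches had 0.77, 0.95 and 0.66. The Peg3 start peak, next to them, had 0.15. The largest values belonged to a peak inside Airn (3.68 and 0.936, centred 1.24) and one 8744 bp from Peg13 in an intron of Trappc9 (3.19 and 0.849, centred 1.18). In all, 10 of 105 peaks were higher in replicate 2 outright, or 9.52%, against 6.98% of all shared peaks. If each step of the height scale were 1 tag, the counting error of a territory peak would be at most 13.2% in replicate 1 and 11.5% in replicate 2. With 1 sample on each side, what else differed between the replicates was not tested. Heights of the 105 peaks had a Spearman correlation of 0.87 between the replicates, against 0.91 over all shared peaks.

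**Figure D5:**
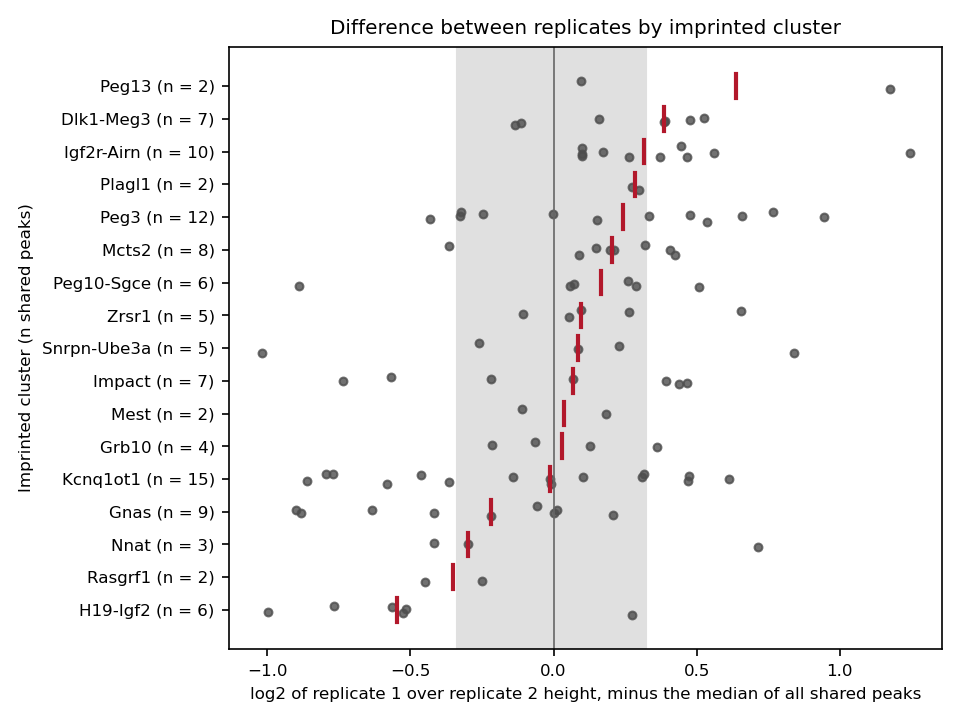
Centred log2 height difference, replicate 1 over replicate 2, for each of the 105 shared peaks (points) by imprinted cluster, with the cluster median (bar) and the quartiles of all shared peaks (grey band). The H19-Igf2 cluster lies lowest at -0.55, and all 10 peaks of the Igf2r-Airn cluster lie above 0, with their median inside the band.

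Of 48 other imprinted genes outside the 34, 35 had a shared promoter peak, or 72.9%, against 77.8% of protein-coding genes of the same CpG deciles. Median heights of the 35 were 3.74 and 2.40, against 3.38 and 1.77 for the members and 5.95 and 3.10 for protein-coding genes with one. These medians are not matched for CpG content. The highest in replicate 1 were Nap1l4 (13.1 and 7.04), Copg2 (12.0 and 5.65) and Chrac1 (11.7 and 4.58), and Calcr, Ddc and Dlx5 were among the 13 without one. Of 21 genes known to set or keep imprints, 18 had a shared promoter peak, or 85.7%, against 87.6% on the same measure. The highest in replicate 1 were the histone demethylase gene Kdm1b with 15.7 and 5.88, Yy1 with 13.96 and 5.44, and the maintenance methyltransferase gene Dnmt1 with 10.3 and 3.66. The 3 without one were Dnmt3l, Ctcfl and Dppa3, genes known for their roles in germ cells and the early embryo.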

How the data were processed

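DNase-seq of mouse adrenal gland was taken from the deposited files of 2 biological replicates. Peak heights are a signal normalised by the authors, and the FDR values and the footprint threshold of 0.01 are deposited p-values or their adjusted form. Each file was made on mm10 per the labels. No source used here names the aligner or the callers of peaks and footprints. Read totals were not used here. Every height was, within 5%, a whole multiple of a step, which was 0.00668 for replicate 1 and 0.00620 for replicate 2, and reading a step as 1 tag is inferred, so counting errors cover counting only.

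The main results use each replicate's shorter peak list, and its longer one (159343 and 93845 peaks) served as an alternative. Regions were described by counts and medians beside all genes or shared peaks, with no test. CpG deciles were set over the CpG-richest start of 21938 protein-coding genes. Consensus sequences were matched exactly on both strands, and a match was in a footprint when its centre was. The promoter window was 1 kb and the territory flank 20 kb. The members and lists were chosen with earlier results of these data known. All members and control regions were named, with the 10 highest peaks. From each other list the 3 highest and up to 3 without a promoter peak were named. Other genes with a start within 1 kb of a described peak were named only in part. Among those left out above were Snurf at the Snrpn peak, Mir675 at H19, Igf2os at Igf2 and Mir3071 near the Rtl1 intron peak. Peaks singled out for a large difference between replicates, the Airn and Usp29 groups and the upstream peaks of Cdkn1c and Dlk1 were chosen after their values were seen. The scripts were tested on simulated data. Python 3.11.15, pandas 2.3.3, NumPy 2.4.6 and pysam 0.24.0 were used.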

Additional observations from a re-analysis of the deposited data

How the results depend on the processing

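No paired analysis was possible because there was 1 group of 2 replicates. The count of members with a shared promoter peak (28) ran from 22 to 30 under 8 alternatives, the lowest with the 50% highest peaks of each replicate or the most 5' start alone. The control regions with a peak (13) ran from 11 to 15, and the promoters below the median of their CpG decile (22) from 18 to 23. The last alternatives, and the other Nespas start, were chosen after seeing the data. The 105 shared peaks became 164 with the longer list and 60 with the 50% highest peaks, and leaving out one replicate at a time gave 124 and 180. Footprints per kb of shared peak, as a mean of both replicates (11.6), were 9.30 with the longer list, 13.1 with the 50% highest peaks, and from 10.9 to 14.1 with one replicate left out. Bases per kb at an FDR of at most 0.05 (33.2) fell to 20.1 at an FDR of at most 0.001, as fewer bases then count, and were from 28.7 to 37.7 with one replicate left out. The median replicate difference over members stayed between 0.04 and 0.10, and the ZFP57 count (28 peaks) between 20 and 41. The depth behind each replicate is unknown, and a site without a peak was not detectable at this depth rather than shown closed.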
